A study of Mus musculus with 6 samples.

Results

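Caveolin, cavin and caveolar neck genes encode the proteins that build caveolae, the flask-shaped pits of the plasma membrane. The 7 genes Cav1, Cav2, Cavin1, Cavin2, Cavin3, Ehd2 and Pacsin2 were selected by their symbols from the 27179 genes of a table of liver RNA-seq values, and each matched 1 row. The authors' comparison of the groups, which includes these genes, was known when they were chosen from the table. The table pooled 6 livers, 3 from LSD1-LKO mice and 3 from Control mice, all of the C57BL/6 strain and fed a high-fat diet. All 6 mice carried Lsd1 alleles flanked by loxP sites and were injected through the tail vein at 6 to 7 weeks of age with an adeno-associated virus of serotype AAV8. In LSD1-LKO mice the virus carried Cre recombinase, which deletes the gene for the histone demethylase LSD1, and in Control mice it carried GFP. Both were driven by the promoter of thyroxine-binding globulin (TBG), which is active in hepatocytes, so the other cells of the liver should keep LSD1. The series description gives 12 weeks of diet and the methods of the study a shorter time. The labels give no sex, and the methods state that most experiments used males.

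Caveolins are hairpin membrane proteins that assemble into the caveolar bulb, and cavins are cytosolic proteins that coat it. EHD2, an ATPase, and PACSIN2, a curvature-sensing F-BAR protein, act at the neck. Caveolae are abundant in endothelium, smooth muscle and adipocytes and are known to be sparse in hepatocytes.

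For each gene the values used here are 1 level pooled over the LSD1-LKO and the Control livers, the base mean that the authors' run of DESeq2 wrote. The level of a gene in a single liver or in either group was not analysed here, so no difference between LSD1-LKO and Control livers is given, no test was run, and no SD belongs to any level. A pooled level lies between those of the groups and is that of neither where they differ. Depth per liver is unknown. The handling of multimapping reads is not stated, so some genes may be listed below their true level, which limits comparisons between genes. A level in CPM here is the base mean of a gene divided by the total of that column (2.07e+07) and multiplied by 1000000. Since a long transcript yields more reads, levels of different genes are compared as CPM per kb, and CPM not divided by length are given beside them as a description. The length is the median length of the protein-coding transcripts of the gene. The deleted gene, Kdm1a, which encodes LSD1, had a pooled level of 10.6 CPM or 5.18 CPM per kb, which cannot check the labels of the livers.

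Upstream sequence gives the setting of the members whose levels the results turn on. It is shown for the caveolin neighbours Cav1 and Cav2, for Cavin2, the highest cavin, and for Pacsin2, the highest neck gene. Each run holds the 250 bases before an annotated transcript start, 5′ to 3′, credited to RefSeq on GRCm38.p6. For Pacsin2 the RefSeq gene reaches a few bases further upstream than that start. The windows are chr6:17306085-17306334 on the plus strand for Cav1, chr6:17280935-17281184 on the plus strand for Cav2, chr1:51288876-51289125 on the plus strand for Cavin2 and chr15:83464607-83464856 on the minus strand for Pacsin2. Capitals mark matches, on either strand, to the GC box GGGCGG, the CCAAT box CCAAT and the TATA box TATAAA.
Cav1: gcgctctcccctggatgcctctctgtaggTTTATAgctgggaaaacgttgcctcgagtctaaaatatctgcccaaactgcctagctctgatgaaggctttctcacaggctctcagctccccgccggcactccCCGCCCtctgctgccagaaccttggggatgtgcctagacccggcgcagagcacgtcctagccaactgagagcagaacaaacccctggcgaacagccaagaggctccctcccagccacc
Cav2: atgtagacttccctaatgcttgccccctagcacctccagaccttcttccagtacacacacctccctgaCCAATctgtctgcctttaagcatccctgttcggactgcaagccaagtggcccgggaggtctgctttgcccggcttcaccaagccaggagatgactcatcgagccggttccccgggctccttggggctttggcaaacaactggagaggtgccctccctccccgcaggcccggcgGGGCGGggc
Cavin2: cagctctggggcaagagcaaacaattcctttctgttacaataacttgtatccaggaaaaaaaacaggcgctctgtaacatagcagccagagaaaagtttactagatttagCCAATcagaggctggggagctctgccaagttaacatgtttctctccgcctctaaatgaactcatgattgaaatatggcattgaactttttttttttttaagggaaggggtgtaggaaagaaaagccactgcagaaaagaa
Pacsin2: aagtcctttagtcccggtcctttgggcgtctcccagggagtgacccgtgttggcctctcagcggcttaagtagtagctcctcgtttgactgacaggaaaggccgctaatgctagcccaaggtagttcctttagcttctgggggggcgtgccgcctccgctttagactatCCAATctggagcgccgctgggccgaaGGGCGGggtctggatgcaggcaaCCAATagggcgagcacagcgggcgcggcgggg

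Cav1 encodes the principal protein of caveolae outside striated muscle. It had a pooled level of 23.9 CPM and, at a median transcript length of 613 bases, 38.96 CPM per kb. That put it at the top of the 7 genes and at percentile 87.7 of the 15700 genes with a level above 0 and a known length. The genes next above it in the order of levels per length were Fbxo31 and Chchd1 and those next below were Cmah and Hmgcs1, all between 38.9 and 39.0 CPM per kb. The level of Cav1 per length rests on the transcript taken, since its 7 annotated protein-coding transcripts run from 323 to 2746 bases. By the longest its level was 8.70 CPM per kb, below Pacsin2 at 18.4 CPM per kb. By the median of its 5 transcripts with both ends found it was 24.0 CPM per kb, close to Pacsin2 at 21.9 CPM per kb. Cav1 and Pacsin2 can therefore not be ordered from these data, while both were above the other 5 members by the median length.

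Cav2 encodes a caveolin that forms hetero-oligomers with caveolin 1 and needs it to reach the plasma membrane. It had a pooled level of 14.3 CPM and 14.7 CPM per kb, at percentile 74.5. Cav1 was thus 2.65 times Cav2 per length, or 1.66 times by the longest transcript of each and 1.63 times by transcripts with both ends found. Both genes lie on the plus strand of chromosome 6, Cav2 at 17281185 to 17289130 and Cav1 at 17306335 to 17341328 in RefSeq on GRCm38.p6. GENCODE places 17219 bases between them, with no annotated gene wholly inside that gap. An antisense transcript, Gm15581, overlaps both, and since the strand of the counting is not given in the sources used here, its reads cannot be told apart from theirs. Cav3, the caveolin of striated muscle, was listed at 0 in the pooled livers.

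**Figure D1:**
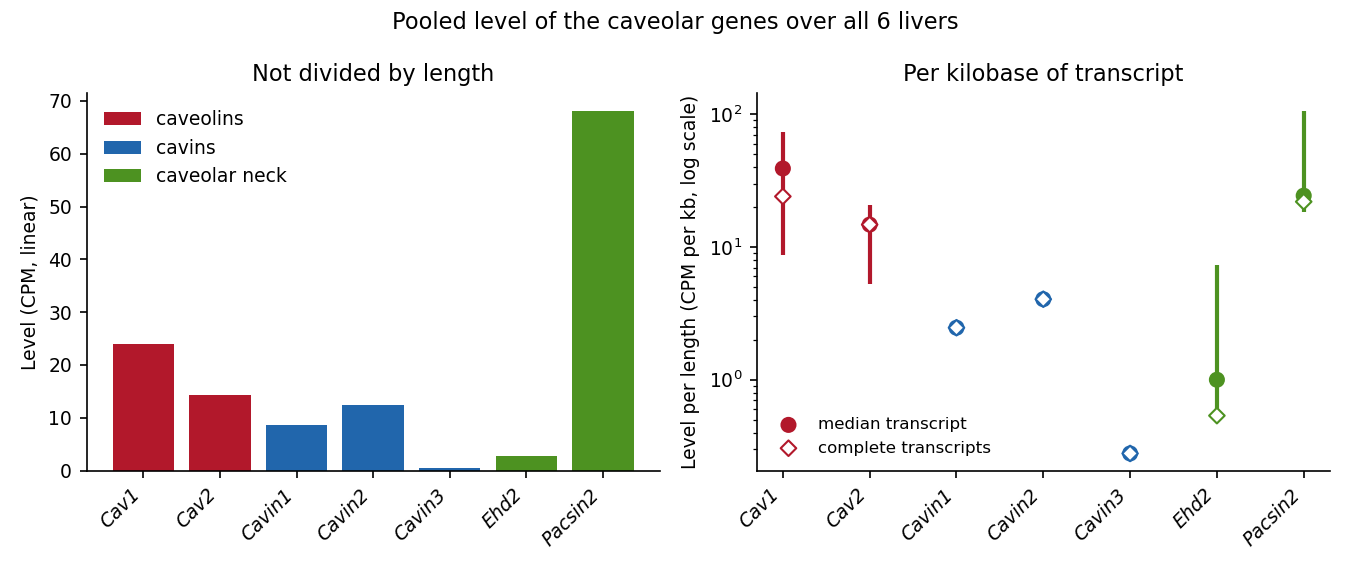
The left panel shows the pooled level of each caveolar gene in CPM on a linear axis, and the right panel the level per kilobase of transcript on a log axis, with dots for the median transcript length, diamonds for transcripts with both ends found and lines for the shortest to the longest transcript. Cav1 stood highest per kilobase, at 38.96 CPM per kb with the median length, the bars on the left also reflect transcript length, and the 3 cavins, with 1 transcript each, have no line.

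Per length, the cavins were lower than both caveolins under each choice of transcript tried. By the longest transcript the margin was narrow, with Cav2 at 5.25 CPM per kb and Cavin2 at 4.04 CPM per kb. Cavin1 encodes the coat protein without which caveolae do not form, and lies on chromosome 11 at 100956736 to 100970617. Its pooled level was 8.60 CPM or 2.46 CPM per kb, at percentile 44.0, with Nemp1 and Fdxacb1 next above it and Med31 and Caln1 next below. Cavin2, whose product shapes the caveolar membrane, was higher, at 12.3 CPM or 4.04 CPM per kb (percentile 51.5), 1.64 times Cavin1. Cavin2 lies on chromosome 1 at 51289126 to 51302960 and is overlapped by the antisense gene 9330175M20Rik. Cavin3, which encodes a cavin that binds protein kinase C delta, was the lowest member, at a base mean of 9.56, a level of 0.463 CPM or 0.278 CPM per kb (percentile 24.3). Cavin3 lies on chromosome 7 at 105480616 to 105482197 and is overlapped by Gm45667, a gene annotated on the opposite strand. Cavin1 was 8.85 times Cavin3 per length, and Cavin4, the cavin of striated muscle, was listed at 0. The 3 cavins have 1 protein-coding transcript each in GENCODE, so their levels do not depend on the choice among GENCODE transcripts. Lengths from another annotation were not tried. GENCODE places Cavin3 at 105480083 to 105482300, wider than RefSeq does. In sum the caveolins held 53.7 CPM per kb and the cavins 6.78 CPM per kb. By the longest transcripts the caveolins held 13.9 CPM per kb against the same sum of cavins.

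The neck genes were far apart in level. Pacsin2 lies on chromosome 15 at 83375607 to 83464610 and contains the processed pseudogene Gm5417 on its own strand. Whether reads of Gm5417 were counted for Pacsin2 is not known from the sources used here. Its pooled level was 68.0 CPM, not divided by length, and 24.3 CPM per kb, at percentile 82.0. PACSIN2 is known to serve other membrane processes beside caveolae, such as endocytosis. Ehd2, whose product holds caveolae at the cell surface, lies on chromosome 7 at 15946963 to 15967535. Its pooled level was 2.75 CPM or 0.9998 CPM per kb, at percentile 34.0. With its only transcript that has both ends found, of 5119 bases, it was at 0.537 CPM per kb. Pacsin2 was 24.3 times Ehd2 per length, and 40.9 times with such transcripts.

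The levels of the 7 genes per length spanned 0.278 to 38.96 CPM per kb, with a median of 4.04 CPM per kb beside 3.67 CPM per kb over all 15700 genes. Of the 7, 4 were above the median of all genes, namely Cav1, Pacsin2, Cav2 and Cavin2. Cavin1, Ehd2 and Cavin3 were below it. By definition as many genes lie above that median as below it, so this split does not set the members apart. Among the 11341 protein-coding genes of at least 1 CPM, Cavin2 was at percentile 33.0. Cav1 held 45.4% of the summed level of the members per length, Pacsin2 28.4%, Cav2 17.2%, Cavin2 4.71%, Cavin1 2.87%, Ehd2 1.17% and Cavin3 0.324%. With transcripts that have both ends found, Cav1 held 35.3% and Pacsin2 32.2%. None of the 7 was listed at 0, and 6 of them reached 1 CPM. Of all 27179 rows 18442 had a level above 0, and 11341 of the 15700 genes ranked were protein-coding and reached 1 CPM.

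**Figure D2:**
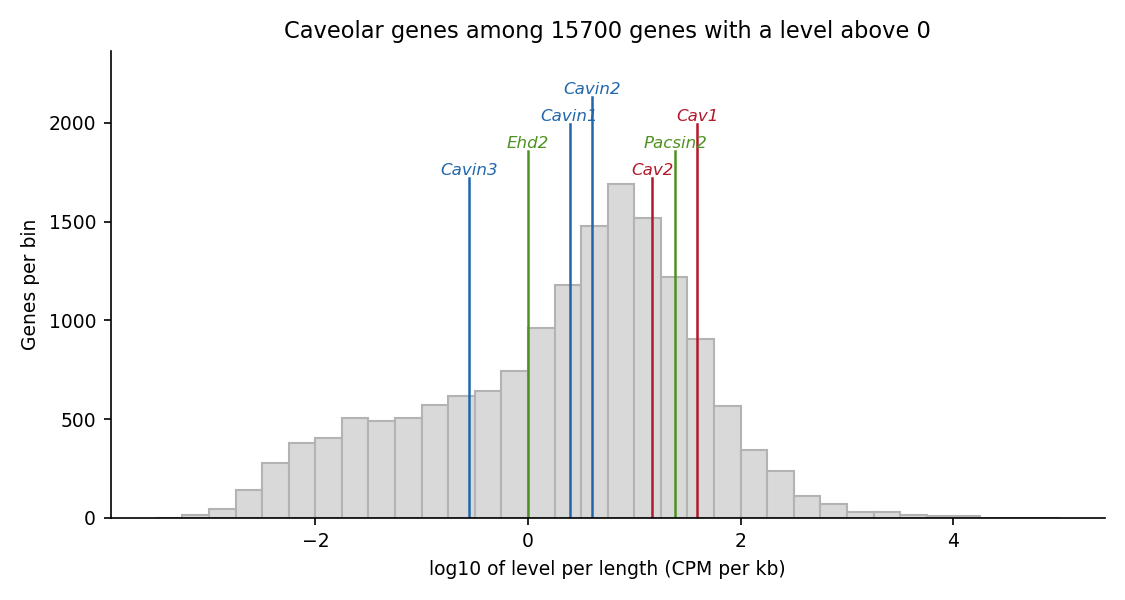
The grey bars count the 15700 genes with a level above 0 and a known length by the log10 of their pooled level in CPM per kb, and each coloured line marks a caveolar gene (red caveolins, blue cavins, green neck genes). Cav1, Pacsin2 and Cav2 stand to the right of the highest bar, and Cavin2, Cavin1, Ehd2 and Cavin3 to the left of it.

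Relatives in the EHD and PACSIN families were also present in the pooled livers. Pacsin3 was at 59.8 CPM per kb, or 25.8 CPM per kb with transcripts that have both ends found, and Pacsin1, a neuronal form, at 0.0340 CPM per kb. Ehd3 was at 15.6 CPM per kb, Ehd1 at 10.5 CPM per kb and Ehd4 at 1.75 CPM per kb. All 3 of these EHD genes, whose products act mainly in endosomal traffic, were thus above Ehd2. Of partners of caveolae, Dnm2, the widely expressed dynamin that cuts vesicles from the membrane, was at 15.99 CPM per kb, and the neuronal dynamin Dnm1 at 0.121 CPM per kb and Dnm3 at 0.310 CPM per kb were lower. The actin crosslinker Flna, which links caveolae to actin fibres, was at 2.66 CPM per kb, and Ror1, a receptor that holds caveolin and cavin together in other tissues, at 0.489 CPM per kb.

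Among 10 genes for proteins described in caveolae, the highest were the lipoprotein receptor Scarb1 at 102.6 CPM per kb, the insulin receptor Insr at 38.5 CPM per kb and the receptor Tgfbr1 at 16.5 CPM per kb. With transcripts that have both ends found Scarb1 was at 67.0 CPM per kb and Insr at 20.6 CPM per kb. The lowest were endothelial nitric oxide synthase, Nos3, at 0.586 CPM per kb and the kinase Src at 0.662 CPM per kb. All 10 genes for flotillins and the clathrin coat, which serve other routes of endocytosis, were above 10 CPM per kb. The adaptor subunit Ap2s1 at 73.9 CPM per kb, the light chain Clta at 68.1 CPM per kb and the light chain Cltb at 42.1 CPM per kb led them, and Ap2m1 at 14.5 CPM per kb and Ap2a1 at 10.3 CPM per kb were lowest. This order rests on the transcripts taken. With those that have both ends found, Cltb was at 26.5 CPM per kb, below the heavy chain Cltc at 31.8 CPM per kb, and Flot1 was lowest at 10.05 CPM per kb. By the median length their median of 22.4 CPM per kb was exceeded by 2 members, Cav1 and Pacsin2.

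Markers of liver cell types place these levels. Hepatocyte markers were by far the most abundant, with a median of 2004 CPM per kb over 9 genes, from Hnf4a at 289.7 CPM per kb to Alb at 38141 CPM per kb, and no caveolar gene reached the lowest of them. The 13 endothelial markers ranged from 1.92 CPM per kb for Tek to 68.1 CPM per kb for Stab1, with a median of 5.21 CPM per kb. The median transcript of Stab1 is a short one, and with transcripts that have both ends found it was at 5.03 CPM per kb. Cav1, Pacsin2 and Cav2 stood above the endothelial median, Cavin2 and Cavin1 inside the endothelial range but under its median, and Ehd2 and Cavin3 below the range. The 10 stellate cell markers ran from 1.15 CPM per kb for Des to 122.3 CPM per kb for Ecm1, with Dcn at 94.1 CPM per kb and a median of 2.94 CPM per kb. With transcripts that have both ends found Ecm1 was at 57.6 CPM per kb, below Dcn, which stayed at 94.1 CPM per kb. The 8 Kupffer cell markers ran from 1.92 CPM per kb for Timd4 to 24.6 CPM per kb for Cd5l. Their median was 10.2 CPM per kb by the median length but 5.39 CPM per kb with transcripts that have both ends found, beside an endothelial median of 5.02 CPM per kb counted the same way. Markers of smooth muscle and myofibroblasts, taken as 1 list, had a median of 0.865 CPM per kb. They ranged from Cnn1 at 0.0441 CPM per kb to the collagen gene Col3a1 at 29.6 CPM per kb. In the same list Tagln was at 6.97 CPM per kb, Acta2 at 0.799 CPM per kb and Myh11 at 0.233 CPM per kb. Col3a1 was at 3.91 CPM per kb with transcripts that have both ends found. Cholangiocyte markers had a median of 0.783 CPM per kb and a range from Cftr at 0.0404 CPM per kb to Spp1 at 41.2 CPM per kb, above Cav1. The mesothelial markers lay between Upk1b at 0.204 CPM per kb and Msln at 0.792 CPM per kb. Of 5 adipocyte markers, Plin1 and Lep were listed at 0 and Adipoq was at 0.0352 CPM per kb, while Cfd and Fabp4 were at 4.38 and 8.68 CPM per kb. Lymphocyte markers were low, between Cd3e at 0.120 CPM per kb and Nkg7 at 0.468 CPM per kb. Of 3 erythroid markers Alas2 was at 96.8 CPM per kb, Hbb-bs at 43.2 CPM per kb and Hba-a1 was listed at 0. Since the handling of multimapping reads is not stated, the 0 of Hba-a1 need not mean that its transcript was absent. These livers are a mixture of cells, and a low level from few cells of a type cannot be told apart from little RNA per cell. Which cells gave the caveolar transcripts was not tested.

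**Figure D3:**
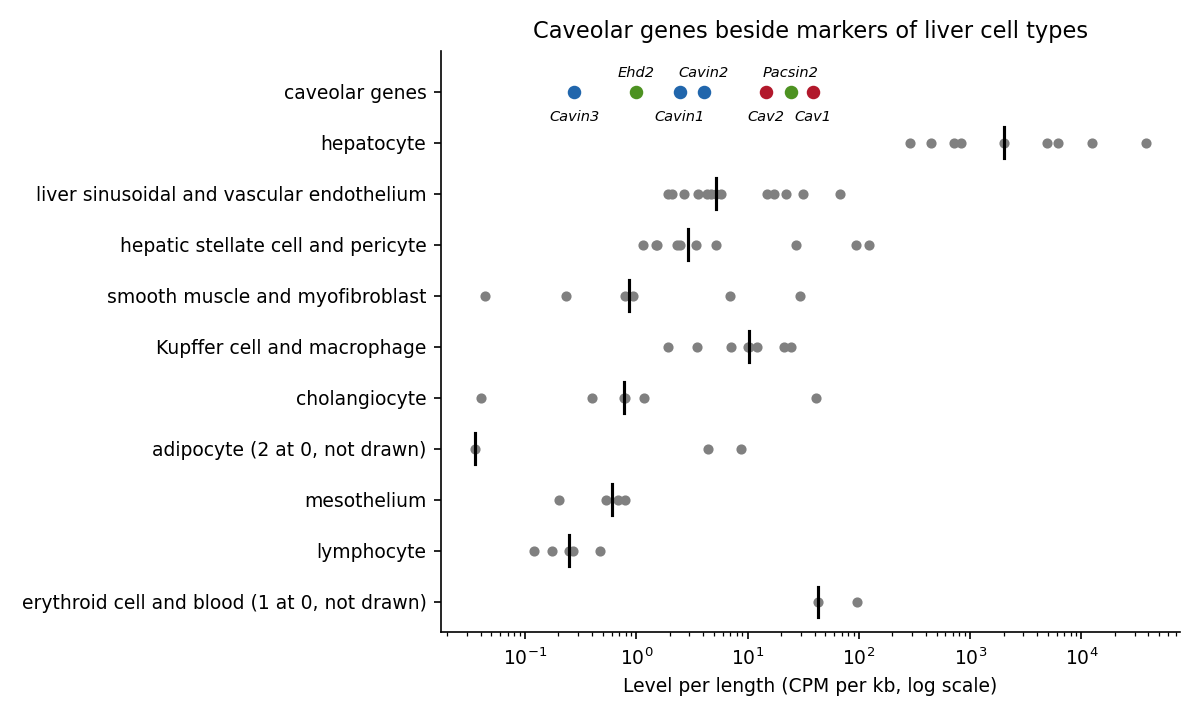
Each dot is the pooled level per length, in CPM per kb on a log axis, of a caveolar gene (top row, red caveolins, blue cavins, green neck genes) or of a cell type marker (grey), and black ticks give the median of each marker list, genes listed at 0 included. All caveolar genes lie left of the hepatocyte markers, and Cav1, Pacsin2 and Cav2 lie right of the endothelial median of 5.21 CPM per kb.

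The upstream windows of the members differed in base composition. Windows were taken for 6 of the 7 members, all but Cavin3, and for 27025 genes in all. Over these 27025 windows the median GC content was 52% and the median CpG ratio, the CpG count over that expected from the bases, was 0.379. The window of Pacsin2 had 62% GC and a CpG ratio of 0.758, the highest of the 6, and that of Ehd2 had 58% and 0.571. Cav1 had 59.6% GC with a ratio of 0.471, Cav2 had 62% with 0.427, and Cavin1 had 67.6% with 0.437. Cavin2 stood apart with 40.4% GC and a ratio of 0.198, the lowest of the 6. The letters GGGCGG, on either strand, were found in 5 of the 6 windows, all but that of Cavin2, and in 33.0% of all windows. CCAAT was found in 5 of the 6, all but that of Cav1, and in 34.5% of all windows. TATAAA was found in that of Cav1 alone, and in 13.0% of all windows. The match in Cav1 reads TTTATA in the run shown above, near its distal end. Such matches are a description of letters, and binding to these windows was not analysed here. The window of Cavin1 lies within a longer transcript that GENCODE annotates and is not shown. Part of the window of Ehd2, at 15967536 to 15967785, also lies within the gene as GENCODE places it, at 15946958 to 15967567.

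**Figure D4:**
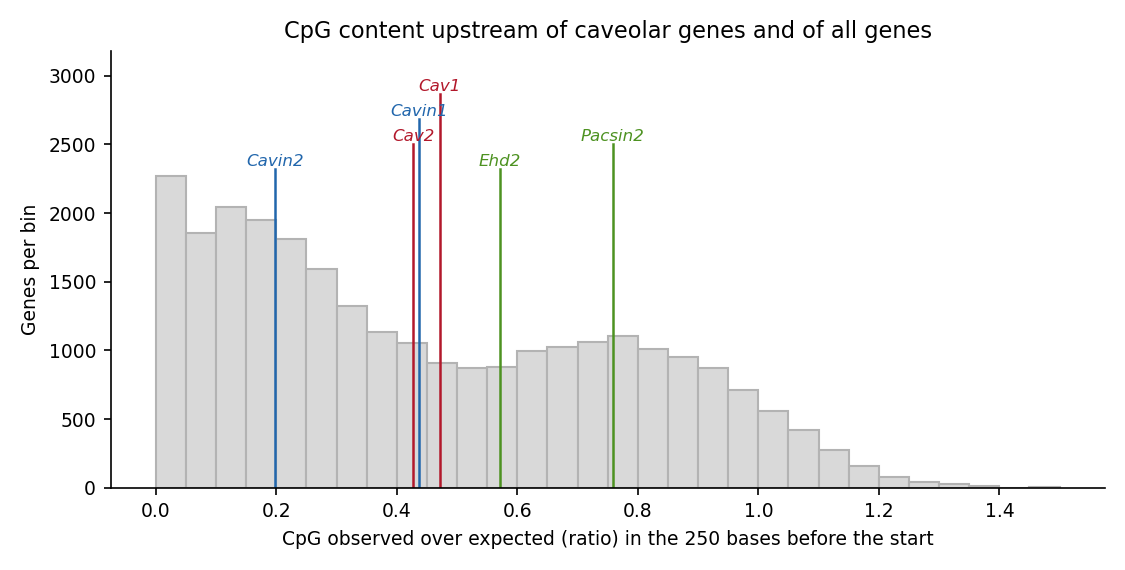
Grey bars count 27025 genes by the CpG ratio (observed over expected) of the 250 bases before their start, and coloured lines mark 6 caveolar genes (red caveolins, blue cavins, green neck genes). Cavin2 lies lowest at 0.198 and Pacsin2 highest at 0.758, with the other 4 between them.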

How the data were processed

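Poly-A RNA from 3 LSD1-LKO and 3 Control livers was sequenced. The authors worked on Galaxy, with STAR for mapping to mm10, StringTie for assembly and DESeq2 for the comparison. Tool versions, gene annotation, strandedness and the handling of multimapping reads are, in the sources used here, not stated. The base mean deposited by the authors is a signal, the mean over all livers of gene counts divided by size factors. The table also holds 5 columns of the authors' comparison of LSD1-LKO with Control (log2 fold change, its SE, Wald statistic, p-value and adjusted p). These are the findings of the study and were not used. Columns with values per sample numbered 0, so the tests planned for values per liver could not be run.

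Of 27179 rows, 18442 had a level above 0. For 5910 rows without a usable symbol, holding 0.392% of the summed base mean, symbols were looked up by Entrez identifier in RefSeq (GRCm38.p6, the assembly also called mm10), which matched 25275 rows. Coordinates come from RefSeq, transcript lengths from GENCODE vM21 through Entrez identifiers. Ranks were taken over 15700 genes with a length, in Python 3.11.15 with pandas 2.3.3. The ranking code returned the known order of simulated levels, which checks the code and not the ranks given here. Gapdh stood at only 1.48 CPM, and the cause was not tested. Whether other genes are also listed too low was not tested, which limits each comparison between genes given here. By the rule, named were the members, Kdm1a, all genes of lists of at most 8, the 3 highest and 2 lowest per length of longer lists, and the 2 neighbours on each side of Cav1 and Cavin1 in rank. In a departure from it, most cell type marker lists are given by their median and the genes at the ends of their range. The members and the 14 lists, with 101 entries that all matched, were chosen with earlier results of these data known.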

Additional observations from a re-analysis of the deposited data

How the results depend on the processing

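No paired analysis was possible because the table holds 1 pooled level per gene and none per liver, and for the same reason no liver could be left out and the settings planned for values per liver were not run. A level was taken to have moved where it changed by more than 1.5 times. Taking the sum without the 100 most abundant rows, which hold 43.6% of it, scaled all members alike, to 42.3 CPM for Cav1, 25.4 for Cav2, 15.2 for Cavin1, 21.9 for Cavin2, 0.820 for Cavin3, 4.87 for Ehd2 and 121 for Pacsin2. With nuclear protein-coding rows as the sum all 7 levels stayed within that limit.

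Per length, the longest transcript gave 8.70 CPM per kb for Cav1, 5.25 for Cav2 and 0.537 for Ehd2, and the shortest gave 73.9 for Cav1, 7.32 for Ehd2 and 106.3 for Pacsin2. Transcripts with both ends found, an alternative chosen after seeing the data, gave 24.0 for Cav1 and 0.537 for Ehd2. Among the 11341 protein-coding genes of at least 1 CPM, Cavin1 was at percentile 22.7, Cavin2 at 33.0 and Ehd2 at 9.22, and Cavin3 fell outside. Not divided by length, the shares of the summed member level were 18.3% for Cav1, 11.0% for Cav2, 6.60% for Cavin1, 9.46% for Cavin2, 2.11% for Ehd2 and 52.2% for Pacsin2. These moves follow from the lengths and genes used. The unknown depth leaves the counting error of each level unknown, which matters most for Cavin3.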
